A study of Mus musculus with 8 samples.

Results

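The myeloid MS4A family was followed in lung RNA of mice with endotoxin shock. It was taken as 8 genes chosen by symbol, *Ms4a4a*, *Ms4a4b*, *Ms4a4c*, *Ms4a6b*, *Ms4a6c*, *Ms4a6d*, *Ms4a7* and *Ms4a8a*, which were mapped from the Ensembl mouse identifiers of the count tables. All 8 were found among the 55416 genes listed, 32006 of them with a count in some library, and all 8 were among the 18560 genes that passed edgeR's expression filter. Lungs came from female C57BL/6J mice aged 6 to 8 weeks and were taken 24 h after the LPS injection. The control group, mice 1, 2 and 4, received DMSO into the tail vein and saline into the peritoneum 30 min later. The LPS group, mice 1, 6 and 7, received 35 mg/kg LPS. Mice 2 and 5, which form the dual-treatment group, received 10 mg/kg YW3-56, an inhibitor of protein arginine deiminases (PADs) dissolved in DMSO, 30 min before the same dose of LPS. The methods describe no DMSO injection for the LPS group. In the comparison of dual-treatment with LPS lungs the inhibitor and its vehicle therefore cannot be told apart. In LPS against control lungs, LPS likewise cannot be told apart from the lack of the DMSO injection. Total counts were 19061949, 19796242 and 20527836 in control mice 1, 2 and 4, 20818501, 19379911 and 19279724 in LPS mice 1, 6 and 7, and 19875939 and 20908608 in dual-treatment mice 2 and 5.

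MS4A proteins cross the plasma membrane several times and resemble the B cell antigen CD20, which is encoded by *Ms4a1*. They sit beside other receptors and modulate their signalling, as the high-affinity IgE receptor subunit encoded by *Ms4a2* does in mast cells. Macrophages and monocytes carry several members, among them *Ms4a4a*, a marker of alternatively activated macrophages that associates with the fungal receptor Dectin-1, and variation near the human counterparts *MS4A4A* and *MS4A6A* is linked to the level of soluble TREM2.

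Levels are given in CPM after TMM normalization. A gene was called a DEG at a Benjamini-Hochberg adjusted p under 0.05 over all tested genes together with a fold change over 2. With LPS, 4 of the 8 genes were upregulated against control, beside 17.9% of all tested genes, and 1 of 8 was downregulated, beside 21.3% of all tested genes. In the dual-treatment group 6 of 8 were upregulated against control, beside 5.25% of all tested genes, and 0 of 8 were downregulated, beside 1.90% of all tested genes. In dual-treatment against LPS lungs 4 of 8 were upregulated, beside 19.8% of all tested genes, and 0 of 8 were downregulated, beside 14.0%. Both counts of 0 came from edgeR's quasi-likelihood test, and they were also 0 with unadjusted p-values under the same fold threshold and with DESeq2. The median log2FC of the 8 genes was 1.38 with LPS and 3.02 with the dual treatment, both against control, and 1.22 between dual-treatment and LPS lungs, while the median over all tested genes was -0.01, 0.00 and 0.06. The first 2 of these comparisons share their control mice, and the members were not tested as a set. The p-values measure the spread between mice. In bulk lung RNA, more cells of a type and more RNA per cell cannot be told apart.

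**Figure D1:**
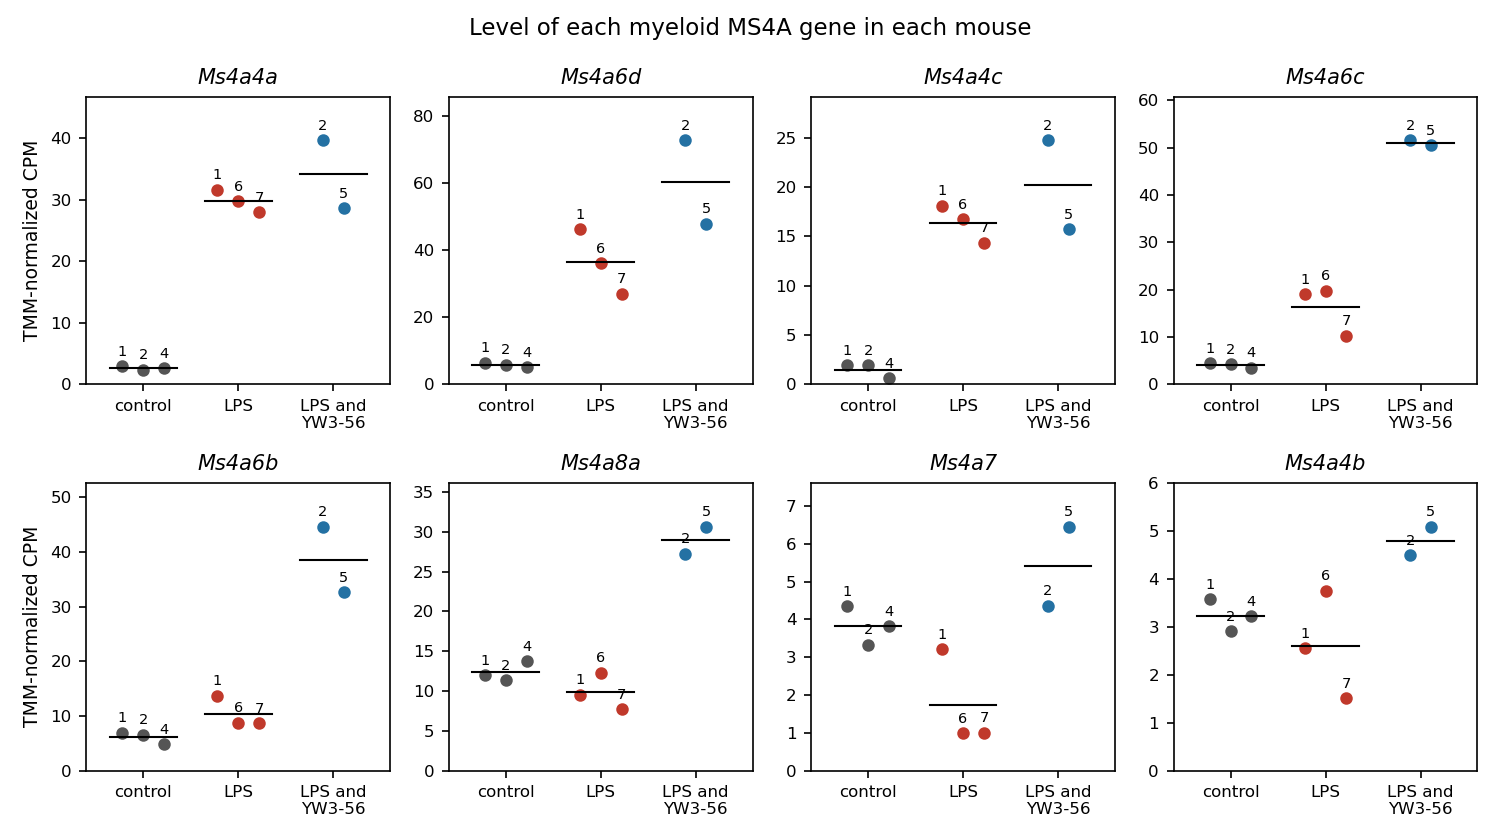
TMM-normalized CPM (vertical axis, from 0, with its own scale in each panel) of the 8 genes in each mouse, where points are mice labelled with their numbers and horizontal lines are group means. *Ms4a6c*, *Ms4a6b* and *Ms4a8a* were higher in both dual-treatment mice than in all LPS mice, at no less than 50.5, 32.6 and 27.2 CPM. So were *Ms4a6d*, *Ms4a7* and *Ms4a4b*, at no less than 47.8, 4.36 and 4.49 CPM. *Ms4a4a* and *Ms4a4c* had 1 dual-treatment mouse within the range of the LPS mice.

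*Ms4a4a* (ENSMUSG00000101389) lies on the + strand of chromosome 19 of GRCm39, from 11352823 to 11370154. It was at 2.89, 2.39 and 2.57 CPM in control mice 1, 2 and 4, at 31.6, 29.7 and 27.9 CPM in LPS mice 1, 6 and 7, and at 39.6 and 28.6 CPM in dual-treatment mice 2 and 5. All treated mice were far above all control mice, and 1 dual-treatment mouse was above the LPS mice while the other was within their range. Expression of *Ms4a4a* rose by a log2FC of 3.50 with LPS (SE 0.164), an 11.3-fold increase, and passed edgeR's quasi-likelihood test (Benjamini-Hochberg adjusted p = 5.55e-07). It rose by 3.70 with the dual treatment (SE 0.172, adjusted p = 9.39e-06 from the same edgeR test). Between dual-treatment and LPS lungs the log2FC was 0.20, with a 95% interval from -0.15 to 0.55, and did not pass the test (adjusted p = 0.30, edgeR). Without dual-treatment mouse 2 this last value was -0.09, so its direction was set by that mouse. With library size as the scaling the log2FC between these groups was 0.53 and passed the adjusted p (0.0173, edgeR) but not the fold threshold. Relative to the median of all genes it was 0.14 under both scalings.

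*Ms4a6d* (ENSMUSG00000024679), which has been described in macrophages as a partner of the receptor VSIG4, lies on the - strand from 11563968 to 11582213. It was at 6.36, 5.82 and 5.06 CPM in control mice 1, 2 and 4, at 46.2, 36.2 and 27.0 CPM in LPS mice 1, 6 and 7, and at 72.7 and 47.8 CPM in dual-treatment mice 2 and 5. The 3 groups did not overlap, although the lower dual-treatment mouse was only slightly above LPS mouse 1. *Ms4a6d* was upregulated with LPS by a log2FC of 2.66 (SE 0.232, adjusted p = 8.93e-06, edgeR) and with the dual treatment by 3.39 (SE 0.247, adjusted p = 5.47e-05, edgeR). The log2FC of dual-treatment against LPS lungs was 0.73 (SE 0.230), a 1.65-fold difference that passed the adjusted p (0.0217, edgeR) but not the fold threshold. Without dual-treatment mouse 2 it was 0.36 (adjusted p = 0.24, edgeR) and with LPS mouse 1 as the only LPS mouse 0.38 (adjusted p = 0.229), and it also lost the adjusted p without LPS mouse 6 (0.0552) or LPS mouse 7 (0.0522).

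*Ms4a4c* (ENSMUSG00000024675), expressed by monocytes, lies on the + strand from 11382131 to 11404610. It was at 1.91, 1.92 and 0.598 CPM in control mice 1, 2 and 4, at 18.1, 16.7 and 14.3 CPM in LPS mice 1, 6 and 7, and at 24.7 and 15.7 CPM in dual-treatment mice 2 and 5. Control mouse 4, with 13 counts, was the lowest of its group, and dual-treatment mouse 5 was within the range of the LPS mice. *Ms4a4c* was upregulated with LPS by a log2FC of 3.47 (SE 0.364, adjusted p = 2.75e-05, edgeR) and by 3.77 with the dual treatment (SE 0.383, adjusted p = 0.000313, edgeR). The 2 treated groups gave a log2FC of 0.30 with a 95% interval from -0.46 to 1.07, which did not pass the test (adjusted p = 0.466, edgeR), and without dual-treatment mouse 2 it was -0.09.

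*Ms4a6c* (ENSMUSG00000079419), another gene of monocytes, also lies on the + strand, from 11446718 to 11462204. It was at 4.50, 4.22 and 3.54 CPM in control mice 1, 2 and 4, at 19.04, 19.8 and 10.2 CPM in LPS mice 1, 6 and 7, and at 51.5 and 50.5 CPM in dual-treatment mice 2 and 5. The groups formed 3 separate steps, and the dual-treatment mice were nearly equal. *Ms4a6c* rose by a log2FC of 2.00 with LPS (SE 0.240, adjusted p = 6.6e-05, edgeR) and by 3.64 with the dual treatment (SE 0.258, adjusted p = 4.81e-05, edgeR). It was also upregulated in dual-treatment against LPS lungs, by 1.64 (SE 0.240, adjusted p = 0.000339, edgeR), a 3.12-fold difference.

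The reads of *Ms4a6c* may be shared with a neighbour. A non-coding RNA on the opposite strand, *BE692007*, overlaps 3751 of the 4899 exon bases of *Ms4a6c*, and the strand setting of the counting is not stated. Of the 100-base words in *Ms4a6c* transcripts, 69.8% also occur in another gene, and all of these occur in *BE692007*. That RNA had 59, 59 and 85 counts in control mice 1, 2 and 4, 20, 24 and 13 in LPS mice 1, 6 and 7, and 152 and 148 in dual-treatment mice 2 and 5. Unlike *Ms4a6c* it was lower in all LPS mice than in all control mice, with a log2FC of -1.53 with LPS (SE 0.291, adjusted p = 0.0012, edgeR). Like *Ms4a6c*, *BE692007* rose in the dual-treatment group, by 1.07 against control (SE 0.287, adjusted p = 0.034, edgeR) and by 2.60 against LPS (SE 0.309, adjusted p = 0.000101, edgeR). Its part in the counts of *Ms4a6c* was not tested. Of the other members, 1.34% of the words of *Ms4a4b* and 1.47% of those of *Ms4a4c* occurred in another gene, and none of the words of *Ms4a4a*, *Ms4a6b*, *Ms4a6d*, *Ms4a7* and *Ms4a8a* did.

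*Ms4a6b* (ENSMUSG00000024677), known from T cells and macrophages, lies on the + strand from 11493876 to 11508620. It was at 6.95, 6.57 and 4.83 CPM in control mice 1, 2 and 4, at 13.7, 8.72 and 8.65 CPM in LPS mice 1, 6 and 7, and at 44.6 and 32.6 CPM in dual-treatment mice 2 and 5. LPS mice 6 and 7 were just above the control mice, LPS mouse 1 was clearly above them, and both dual-treatment mice were far above the LPS mice. The log2FC with LPS was 0.76 (SE 0.231), which passed the adjusted p (0.0155, edgeR's quasi-likelihood test) but not the fold threshold. *Ms4a6b* rose by 2.66 with the dual treatment against control (SE 0.248, adjusted p = 0.000201, edgeR) and by 1.90 against LPS (SE 0.243, adjusted p = 0.000156, edgeR). With LPS mouse 1 as the only LPS mouse, assumed to vary like the mice of the other groups, its log2FC against control was 1.16 and met the criterion of a DEG, while without LPS mouse 1 it was 0.51 (adjusted p = 0.0557, edgeR), without control mouse 4 it was 0.61 (adjusted p = 0.0554), and with library size as the scaling it was 0.46 (adjusted p = 0.0849).

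*Ms4a4b* (ENSMUSG00000056290), known chiefly from T cells, where it associates with the receptor GITR, lies on the + strand from 11412557 to 11444419. It was at 3.57, 2.91 and 3.22 CPM in control mice 1, 2 and 4, at 2.55, 3.75 and 1.51 CPM in LPS mice 1, 6 and 7, and at 4.49 and 5.09 CPM in dual-treatment mice 2 and 5. The control mice were within the wide range of the LPS mice, and the dual-treatment mice were above all other mice. None of its comparisons met the criterion of a DEG. The log2FC was -0.31 with LPS (95% interval from -1.02 to 0.39, adjusted p = 0.40, edgeR) and 0.57 with the dual treatment (95% interval from -0.19 to 1.32, adjusted p = 0.295, edgeR). The value with LPS ran from -0.67 without LPS mouse 6 (adjusted p = 0.0794, edgeR) to -0.04 without LPS mouse 7. Between dual-treatment and LPS lungs it was 0.88 (SE 0.342), with an adjusted p of 0.0489 (edgeR) and a fold of 1.84, and it met the criterion, at 1.24, when LPS mouse 6 was left out. Its adjusted p was above the threshold when any other mouse of the 2 groups was left out, from 0.0872 to 0.188 (edgeR), and with DESeq2 (0.0532). Of 12 T cell genes 0 were upregulated and 4 were downregulated in dual-treatment against LPS lungs, beside 19.8% and 14.0% of all tested genes (edgeR, 0 upregulated also with unadjusted p-values and with DESeq2). Of 10 NK cell genes 4 were upregulated and 1 was downregulated in that comparison, and the part of either cell type in the level of *Ms4a4b* was not tested.

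*Ms4a7* (ENSMUSG00000024672), a gene of tissue macrophages, lies on the - strand from 11298403 to 11313510. It was at 4.35, 3.33 and 3.82 CPM in control mice 1, 2 and 4, at 3.20, 0.982 and 1.005 CPM in LPS mice 1, 6 and 7, and at 4.36 and 6.45 CPM in dual-treatment mice 2 and 5. LPS mice 6 and 7, with 17 and 18 counts, were well below all other mice, while LPS mouse 1 was just below the lowest control mouse. *Ms4a7* was the only member downregulated with LPS, with a log2FC of -1.15 (SE 0.436, adjusted p = 0.0403, edgeR's quasi-likelihood test), and its value of 0.50 with the dual treatment against control did not pass the test (95% interval from -0.52 to 1.51, adjusted p = 0.507, edgeR). It was upregulated in dual-treatment against LPS lungs by 1.65 (SE 0.469, adjusted p = 0.0134, edgeR). The downregulation with LPS was lost when any of control mice 1, 2 and 4 or LPS mice 6 and 7 was left out, with log2FC values of -1.05, -1.24, -1.16, -0.87 and -0.87 in that order, and was -0.26 with LPS mouse 1 as the only LPS mouse and -1.94 without it. The rise over LPS was lost with LPS mouse 1 alone (0.75) and without dual-treatment mouse 5 (1.32), and without LPS mouse 1 it was 2.44.

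*Ms4a8a* (ENSMUSG00000024730), reported in macrophages exposed to glucocorticoid and interleukin-4 and in epithelium, lies apart from the other members on the - strand, from 11044835 to 11058466. It was at 12.0, 11.4 and 13.7 CPM in control mice 1, 2 and 4, at 9.55, 12.3 and 7.70 CPM in LPS mice 1, 6 and 7, and at 27.2 and 30.6 CPM in dual-treatment mice 2 and 5. Control and LPS mice overlapped, and both dual-treatment mice had more than all other mice. The log2FC of *Ms4a8a* with LPS was -0.33 (95% interval from -0.73 to 0.07) and did not pass the test (adjusted p = 0.131, edgeR), while it was -0.52 without LPS mouse 6 (adjusted p = 0.0238), -0.18 without LPS mouse 7 (adjusted p = 0.346) and with library size as the scaling -0.61 (adjusted p = 0.0123), still under the fold threshold. *Ms4a8a* rose with the dual treatment by 1.23 against control (SE 0.190, adjusted p = 0.00282, edgeR) and by 1.55 against LPS (SE 0.193, adjusted p = 0.000128, edgeR). Of 10 ciliated cell genes 0 were upregulated and 2 were downregulated in dual-treatment against LPS lungs, beside 19.8% and 14.0% of all tested genes. This 0 came from edgeR and was the same with unadjusted p-values and with DESeq2. Of 8 genes of alveolar type 1 epithelium, 5 were downregulated with LPS, beside 21.3% of all tested genes. With the dual treatment against control 1 was downregulated, beside 1.90%. In dual-treatment against LPS lungs 5 were upregulated and 1 was downregulated, beside 19.8% and 14.0%. The part of either cell type in the level of *Ms4a8a* was not tested.

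With library size in place of TMM as the scaling, the median log2FC of all tested genes was -0.29 with LPS against control and 0.38 between dual-treatment and LPS lungs. No member changed its direction. *Ms4a6d* and *Ms4a4b* then met the criterion of a DEG in dual-treatment against LPS lungs, at 1.07 and 1.21, but relative to the median of all genes their values were 0.69 and 0.83, beside 0.67 and 0.82 under TMM.

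To compare the genes with one another, CPM was divided by exon length in kb. In control lungs *Ms4a8a* had the highest mean level, at 6.88 CPM per kb, followed by *Ms4a6d* at 3.31, *Ms4a4a* at 1.84 and *Ms4a6b* at 1.36. *Ms4a7*, *Ms4a6c* and *Ms4a4c* followed at 0.861, 0.835 and 0.797 CPM per kb, with overlapping mice, and *Ms4a4b* had the lowest mean, 0.335, although *Ms4a4c* was below it in control mouse 4. In LPS lungs *Ms4a6d* and *Ms4a4a* led with overlapping mice, at means of 21.004 and 20.9 CPM per kb, and *Ms4a8a*, at 5.49, was below *Ms4a4c* at 8.84. After them came *Ms4a6c* at 3.33 and *Ms4a6b* at 2.30 CPM per kb, and *Ms4a7* at 0.389 and *Ms4a4b* at 0.270, and each of these pairs overlapped between mice. In dual-treatment lungs the order was *Ms4a6d* at 34.7 CPM per kb and *Ms4a4a* at 23.9, which overlapped, then *Ms4a8a* at 16.1, then *Ms4a4c* at 10.9, whose mice overlapped those of *Ms4a6c* at 10.4 and of *Ms4a6b* at 8.56. *Ms4a7* at 1.21 and *Ms4a4b* at 0.496 CPM per kb were lowest there. The order depends on the length used: per kb of the canonical transcript, *Ms4a4a* was above *Ms4a6d* in LPS lungs, at 35.6 against 25.7 CPM per kb, and *Ms4a6c* was above *Ms4a4c* in dual-treatment lungs, at 27.5 against 11.7.

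The summed level of the 8 genes was 17.2, 15.8 and 15.7 CPM per kb in control mice 1, 2 and 4, 71.8, 64.2 and 51.6 in LPS mice 1, 6 and 7, and 120.1 and 92.7 in dual-treatment mice 2 and 5. The groups did not overlap, and the makeup of the sum differed as well as its size. *Ms4a8a* made up 38.8%, 40.1% and 48.7% of it in control mice 1, 2 and 4, 7.41%, 10.7% and 8.32% in LPS mice 1, 6 and 7, and 12.6% and 18.4% in dual-treatment mice 2 and 5. *Ms4a4a* made up 11.8%, 10.7% and 11.5% in the control mice, 30.9%, 32.5% and 38.0% in the LPS mice, and 23.2% and 21.7% in the dual-treatment mice, in the same order. *Ms4a4a* therefore had its largest share with LPS alone, although its level was as high with the dual treatment. *Ms4a6d* had mean shares of 20.4% in control lungs, 33.2% with LPS and 32.3% with the dual treatment, while *Ms4a6b* and *Ms4a6c* had 3.65% and 5.25% in LPS lungs and 8.01% and 9.94% in dual-treatment lungs. These shares, like the order of the genes, depend on the length used.

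**Figure D2:**
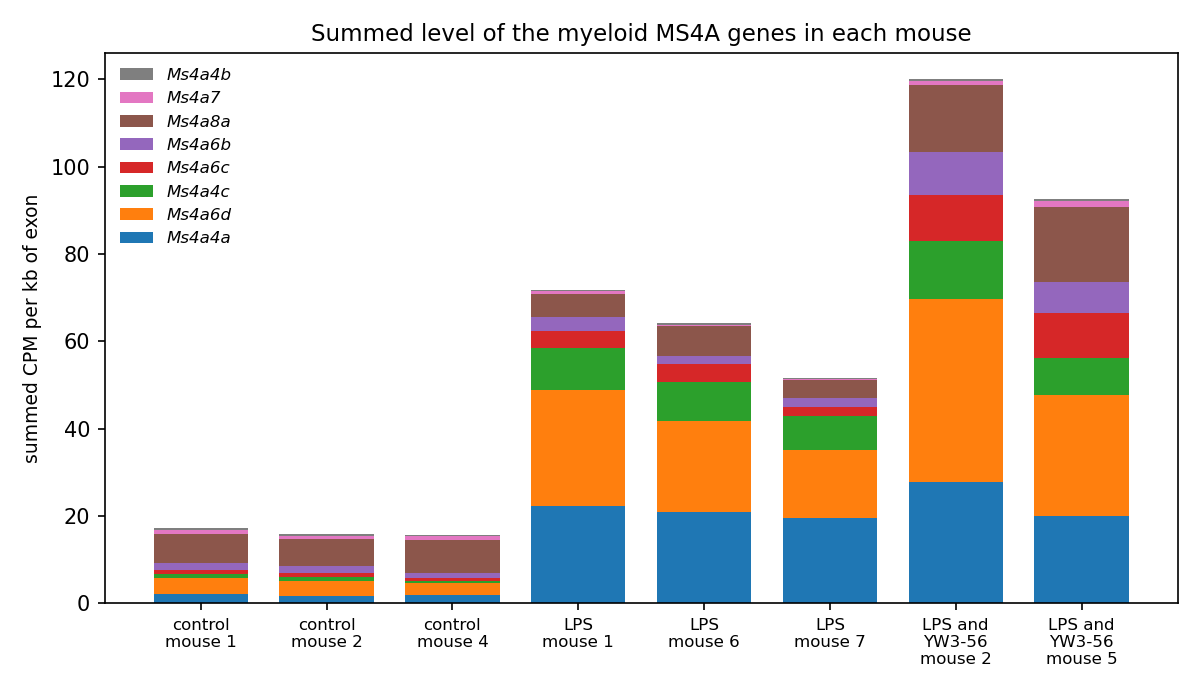
Summed CPM per kb of exon (vertical axis, from 0) of the 8 genes in each mouse, stacked by gene, with 1 bar for each mouse. The sum was 15.7 to 17.2 in control mice, 51.6 to 71.8 in LPS mice and 92.7 and 120.1 in dual-treatment mice, and *Ms4a4a* and *Ms4a6d* were the largest parts in all treated mice.

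The patterns of the members across the 8 mice were compared by Pearson's r of log2 CPM with a prior count of 2. *Ms4a4a*, *Ms4a4c* and *Ms4a6d*, whose levels in the 2 treated groups overlapped or nearly met, had r of 0.970 for *Ms4a4a* with *Ms4a4c*, 0.980 for *Ms4a4a* with *Ms4a6d* and 0.969 for *Ms4a4c* with *Ms4a6d*. *Ms4a6c* had r = 0.952 with *Ms4a6d* and r = 0.929 with *Ms4a6b*, and all 3 of these were highest in the dual-treatment group and intermediate with LPS. *Ms4a4b* and *Ms4a8a* had r = 0.868, and the lowest r of any pair was -0.287, between *Ms4a4a* and *Ms4a7*. All of these values come from the same 8 libraries in 3 groups.

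Outside the family, the 2 tested genes with the most similar pattern were sought for each member among 15568 genes with a mean of at least 1 CPM. They were *N4bp1* (r = 0.996) and *Lilrb4a* (r = 0.9945) for *Ms4a4a*, *Gins2* (r = 0.996) and *Mmp14* (r = 0.993) for *Ms4a6d*, and *Xxylt1* (r = 0.988) and *Apod* (r = 0.987) for *Ms4a4c*. For *Ms4a6c* they were *Pira2* (r = 0.996) and *Siglece* (r = 0.988), and for *Ms4a6b* *Grn* (r = 0.977) and *Mcm2* (r = 0.975). *Siglece*, an inhibitory sialic acid receptor of myeloid cells, was at means of 4.12 CPM in control, 12.9 CPM in LPS and 38.8 CPM in dual-treatment lungs. For *Ms4a7* they were *Tmem88* (r = 0.986) and *Glb1* (r = 0.975), for *Ms4a8a* *Gsdmd* (r = 0.993) and *Emp3* (r = 0.987), and for *Ms4a4b* *Eef1akmt2* (r = 0.992) and *Arl11* (r = 0.976). *Gsdmd*, the pore-forming protein of pyroptosis, was at means of 58.3, 51.6 and 95.5 CPM in control, LPS and dual-treatment lungs. Since these genes were chosen by their r over the same mice, their likeness to the members follows from the choice.

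The 8 members lie in a cluster of 22 protein-coding genes that spans 679 kb of chromosome 19, from 10939657 to 11618215 in GRCm39. The canonical transcript of each member has 7 exons. Besides the members the cluster holds 13 other MS4A genes and *Gm8369*, and 5 of these, *Ms4a5*, *Ms4a10*, *Ms4a12*, *Ms4a13* and *Ms4a18*, had 0 counts in all mice. The genes of the cluster did not move as a block. *Ms4a4d* lies between *Ms4a6b* and *Ms4a6d* and was at 79.2, 78.4 and 77.8 CPM in control mice 1, 2 and 4, at 159.8, 128.1 and 123.4 CPM in LPS mice 1, 6 and 7, and at 74.7 and 48.3 CPM in dual-treatment mice 2 and 5. It was thus high in all LPS mice and near or below control in the dual-treatment mice, unlike the members on either side. *Ms4a4d* had a log2FC of 0.81 with LPS, short of the fold threshold (SE 0.160, adjusted p = 0.00156, edgeR), and fell by 1.16 in dual-treatment against LPS lungs (SE 0.184, adjusted p = 0.000567, edgeR). Per kb of exon its mean level in control lungs was 21.7 CPM, above the 6.88 CPM of *Ms4a8a*, the highest of the members. *Gm8369*, between *Ms4a6c* and *Ms4a6b*, rose with LPS by 1.78 (adjusted p = 0.00421, edgeR), and its log2FC of 0.87 with the dual treatment against control did not pass the test (adjusted p = 0.238, edgeR).

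**Figure D3:**
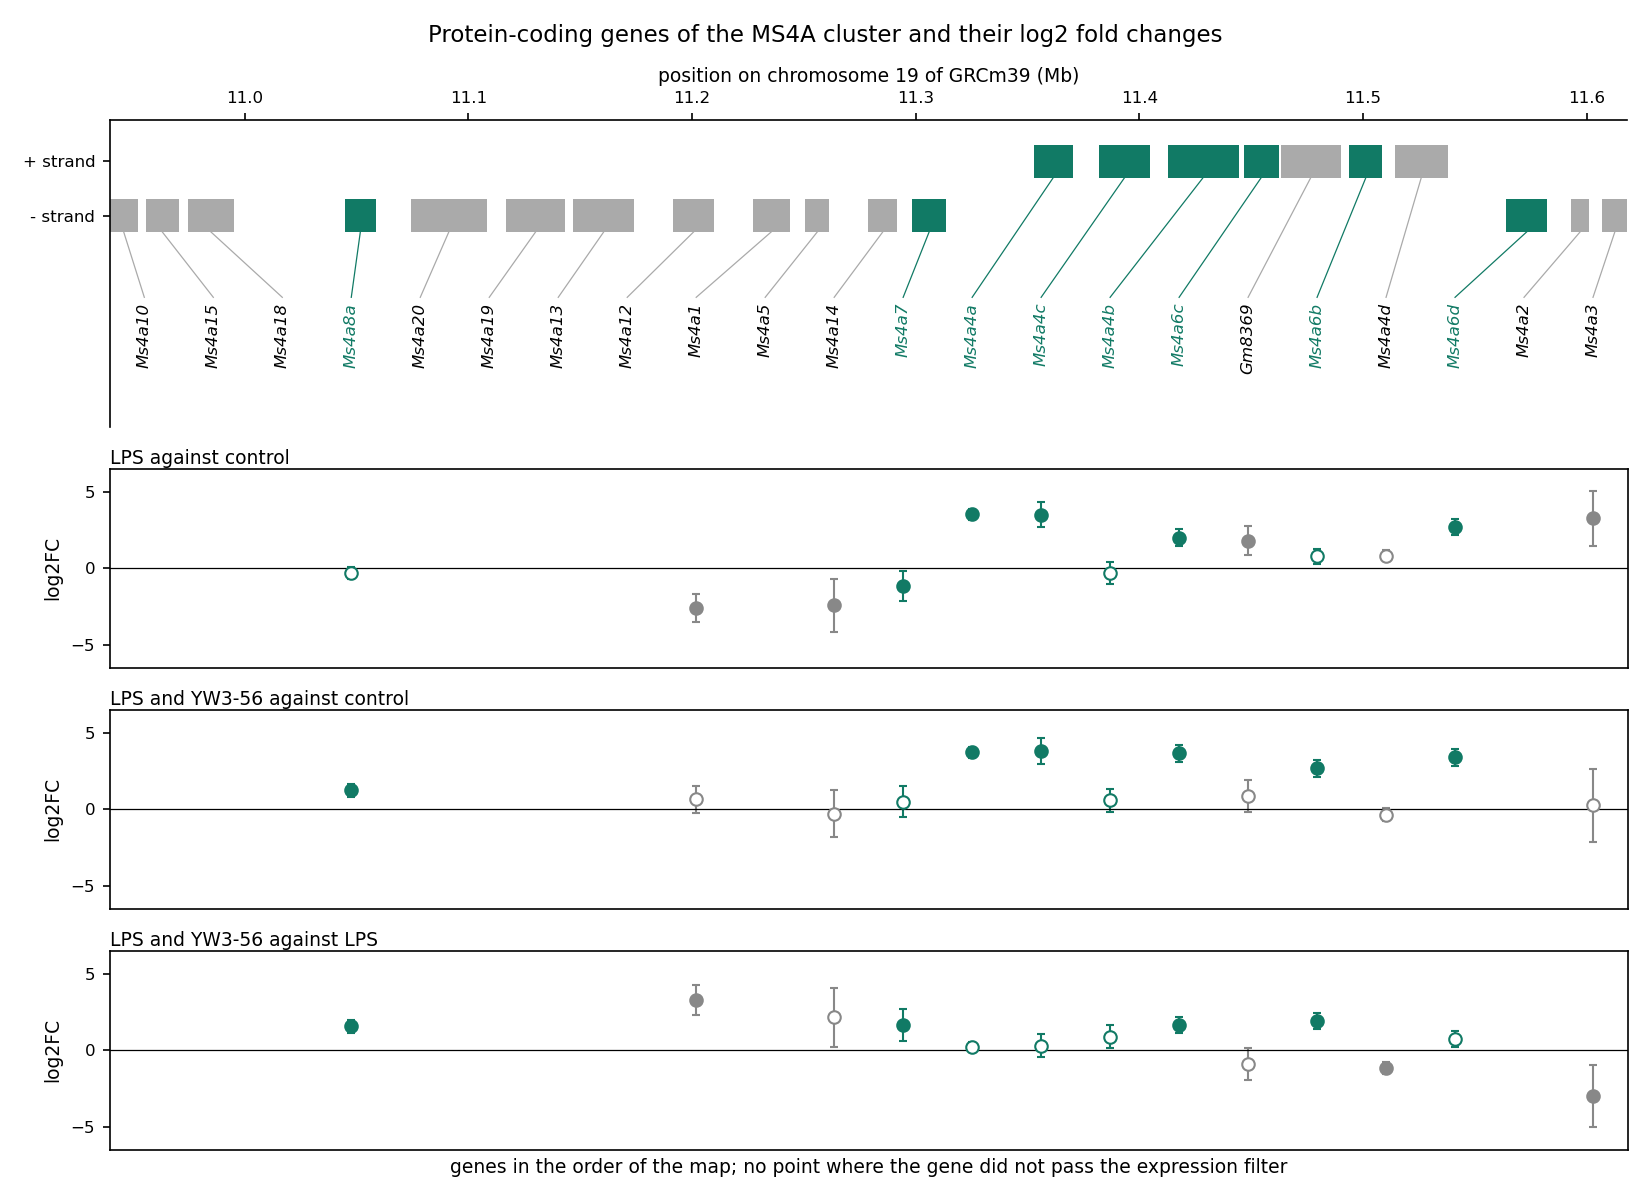
Upper panel: the 22 protein-coding genes of the MS4A cluster on chromosome 19 of GRCm39 (horizontal axis, Mb) by strand, with the 8 members in green. Lower panels: log2FC (vertical axes) of each tested gene in the 3 comparisons with its 95% interval, where filled points met the criterion of a DEG and open points did not; *Ms4a4d*, at -1.16 in dual-treatment against LPS lungs, lies between *Ms4a6b* at 1.90 and *Ms4a6d* at 0.73.

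*Ms4a1*, the CD20 gene of B cells, had 85, 98 and 89 counts in control mice 1, 2 and 4, 12, 7 and 17 in LPS mice 1, 6 and 7, and 208 and 88 in dual-treatment mice 2 and 5. It fell by 2.62 with LPS (SE 0.410, adjusted p = 0.000358, edgeR) and was upregulated in dual-treatment against LPS lungs by 3.26 (SE 0.433, adjusted p = 0.000194, edgeR). Of 8 B cell genes, 3 were downregulated and 1 was upregulated with LPS, beside 21.3% and 17.9% of all tested genes. In dual-treatment against LPS lungs 3 were upregulated and 1 was downregulated, beside 19.8% and 14.0%. *Ms4a3*, a gene of granulocyte and monocyte progenitors, had 3, 1 and 3 counts in the control mice, 26, 16 and 15 in the LPS mice, and 0 and 6 in the dual-treatment mice. It rose with LPS by 3.25 (SE 0.799, adjusted p = 0.00536, edgeR) and fell by 2.99 in dual-treatment against LPS lungs (SE 0.899, adjusted p = 0.0172, edgeR), directions opposite to those of *Ms4a7*. *Ms4a14* fell by 2.44 with LPS (adjusted p = 0.0199, edgeR) on no more than 14 counts in any library. *Ms4a2*, *Ms4a15*, *Ms4a19* and *Ms4a20* had no more than 8 counts in any library and were not tested. The related genes *Tmem176a* and *Tmem176b*, on another chromosome, had log2FC values of 0.86 and 0.70 with LPS and 0.96 in each case with the dual treatment, which did not reach the fold threshold. They share 1084 exon bases on opposite strands, so their counts are uncertain.

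A list of 10 genes was taken for the Dectin-1 and TREM2 receptors and their partners, which are not all partners of MS4A proteins. Over all tested genes, 17.9% were upregulated and 21.3% downregulated with LPS. These shares were 5.25% and 1.90% with the dual treatment against control, and 19.8% and 14.0% in dual-treatment against LPS lungs. With LPS 2 were upregulated and 1 was downregulated, with the dual treatment 7 were upregulated and 0 downregulated against control (edgeR, with 1 downregulated by unadjusted p-values and 1 by DESeq2), and 3 were upregulated and 0 downregulated in dual-treatment against LPS lungs (edgeR, 0 also by unadjusted p-values and by DESeq2). *Trem2* was at 8.37, 6.43 and 6.62 CPM in control mice 1, 2 and 4, at 3.32, 4.56 and 1.79 CPM in LPS mice 1, 6 and 7, and at 17.2 and 22.0 CPM in dual-treatment mice 2 and 5. The groups did not overlap, and it fell by 1.15 with LPS (adjusted p = 0.00722, edgeR) and rose by 2.61 in dual-treatment against LPS lungs (adjusted p = 0.000124, edgeR), which are the directions of *Ms4a7* in the same comparisons. *Clec7a*, which encodes Dectin-1, was at mean CPM of 23.5, 14.7 and 9.86 in control, LPS and dual-treatment lungs. The last mean joins 4.40 CPM in dual-treatment mouse 2 and 15.3 CPM in mouse 5, which was within the LPS range of 10.6 to 17.6 CPM. *Clec7a* was called in no comparison by edgeR with adjusted p-values. It is the gene that unadjusted p-values put lower in the dual-treatment group than in control, at a log2FC of -1.25 (unadjusted p = 0.0171, edgeR). Both dual-treatment mice were below the lowest control mouse, at 20.4 CPM, but mouse 2 was much further below it than mouse 5.

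Interferon response genes are set beside the members. Over all tested genes, 17.9% were upregulated and 21.3% downregulated with LPS. These shares were 5.25% and 1.90% with the dual treatment against control, and 19.8% and 14.0% in dual-treatment against LPS lungs. Of 16 such genes 15 were upregulated with LPS, 9 with the dual treatment against control, and 14 were downregulated in dual-treatment against LPS lungs, where 0 of the 8 MS4A members and 14.0% of all tested genes were. The summed level of these interferon genes was 505, 584 and 535 CPM in control mice 1, 2 and 4, 9600, 6900 and 6156 CPM in LPS mice 1, 6 and 7, and 1443 and 861 CPM in dual-treatment mice 2 and 5. Of 10 glucocorticoid targets, 8 were upregulated with LPS, 2 with the dual treatment against control, and 8 were downregulated in dual-treatment against LPS lungs. Of 10 genes of alternative activation, 4 were upregulated and 2 downregulated with LPS, 2 upregulated and 1 downregulated with the dual treatment against control, and 2 upregulated and 2 downregulated in dual-treatment against LPS lungs, so this list did not share 1 direction with *Ms4a4a* or *Ms4a8a*. Within it *Retnla* fell by 3.93 between these groups (adjusted p = 8.17e-06, edgeR).

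Lists of myeloid markers are set beside the members, and they did not share 1 direction. Over all tested genes, 17.9% were upregulated and 21.3% downregulated with LPS. These shares were 5.25% and 1.90% with the dual treatment against control, and 19.8% and 14.0% in dual-treatment against LPS lungs. Of 15 interstitial macrophage genes, 1 was upregulated and 3 were downregulated with LPS, 8 were upregulated with the dual treatment against control, and 12 were upregulated and 1 was downregulated in dual-treatment against LPS lungs. Their summed level was 1554, 1375 and 1449 CPM in control mice 1, 2 and 4, 2844, 2457 and 2134 CPM in LPS mice 1, 6 and 7, and 2349 and 2329 CPM in dual-treatment mice 2 and 5, and its largest part was *Apoe* in control and dual-treatment lungs and *Lyve1*, which lymphatic endothelium also expresses, in LPS lungs. *C1qa*, also of that list, was at mean CPM of 25.6, 18.5 and 115 in control, LPS and dual-treatment lungs, lowest with LPS and highest with the dual treatment like *Ms4a7* and *Ms4a8a*. Of 12 monocyte genes, 7 were upregulated and 4 downregulated with LPS, 8 were upregulated with the dual treatment against control, and 7 were upregulated and 3 downregulated in dual-treatment against LPS lungs. The sum of the monocyte genes was 1371, 1261 and 1551 CPM in the control mice, 2100, 1375 and 1276 CPM in the LPS mice, and 1718 and 2255 CPM in the dual-treatment mice, and its largest part was *Ace*, which endothelium also expresses, in control and dual-treatment lungs and *Cd14* in LPS lungs. *Ly6c2*, of classical monocytes, was at mean CPM of 6.93, 71.8 and 79.8 in control, LPS and dual-treatment lungs, an order like that of *Ms4a4a* and *Ms4a4c*, whereas *Ccr2*, another gene of that list, was at 18.7, 2.04 and 27.8 CPM. Of 13 neutrophil genes 12 were upregulated with LPS, 8 with the dual treatment against control, and 4 were upregulated and 5 downregulated in dual-treatment against LPS lungs. Of 12 alveolar macrophage genes 1 was upregulated and 4 were downregulated with LPS, 1 was upregulated with the dual treatment against control, and 5 were upregulated and 1 was downregulated in dual-treatment against LPS lungs. None of these marker genes was at 0 in all mice, and their part in the levels of the MS4A genes was not tested.

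LPS mice 6 and 7 also carried genes of tissues outside the lung. The summed level of 10 squamous epithelium genes was 11.4, 15.0 and 15.4 CPM in control mice 1, 2 and 4, 1.54, 746 and 2086 CPM in LPS mice 1, 6 and 7, and 10.9 and 25.5 CPM in dual-treatment mice 2 and 5, with *Krt13* the most abundant in LPS lungs. The sum of 10 skeletal muscle genes, led by *Acta1* in LPS lungs, was 10.5, 19.8 and 14.7 CPM in the control mice, 17.5, 501 and 1288 CPM in the LPS mice, and 5.67 and 8.03 CPM in the dual-treatment mice. With LPS mouse 1 as the only LPS mouse, *Ms4a4a*, *Ms4a4c*, *Ms4a6c* and *Ms4a6d* were still upregulated against control, and *Ms4a6b*, *Ms4a6c* and *Ms4a8a* were still upregulated in dual-treatment against LPS lungs. *Ms4a7* lost both of its calls there, at -0.26 with LPS (adjusted p = 0.539, edgeR) and 0.75 in dual-treatment against LPS lungs (adjusted p = 0.115, edgeR).

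The upstream sequences of the members were read from RefSeq promoter windows of 250 bases before to 50 bases after the annotated start, in build GRCm38.p6. Windows were matched for 7 of the 8 members, with 2 windows for *Ms4a7*, and *Ms4a6d* had none. The letters searched on both strands were PU.1 GAGGAAGT, held by 3.20% of the 32851 windows in the table, the core of the interferon-stimulated element GAAANNGAA (8.56%), the ETS-IRF composite core GGAANNGAA (8.24%), C/EBP TTGCNNAA (10.8%) and kappaB GGGANTTTC (1.11%). The interferon and ETS-IRF cores differ in 1 letter and cannot match at the same place. The kappaB letters were found in *Ms4a4a*, *Ms4a6b* and *Ms4a6c*, the interferon core in *Ms4a6b*, *Ms4a6c* and both windows of *Ms4a7*, and the ETS-IRF core in *Ms4a6c* after its start. The letters for PU.1 and C/EBP were in none of these windows.

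*Ms4a6b* and *Ms4a6c* were the only members with both the interferon core and the kappaB letters, a combination held by 37 of the 32851 windows (0.113%). The members upregulated in dual-treatment against LPS lungs were these 2, *Ms4a7* and *Ms4a8a*. *Ms4a7* and *Ms4a8a* lack the combination, and *Ms4a8a* had no match to any of the letters. A link between the letters and the levels was not tested. This combination and the alignment of the windows were examined after the matches had been seen. The 250 bases upstream of both are printed to show that the 2 matches have the same letters and the same order, with the matches in capitals. The stretches are chr19:11518309-11518558 for *Ms4a6b* and chr19:11469118-11469367 for *Ms4a6c* in GRCm38.p6, both on the + strand.
Ms4a6b: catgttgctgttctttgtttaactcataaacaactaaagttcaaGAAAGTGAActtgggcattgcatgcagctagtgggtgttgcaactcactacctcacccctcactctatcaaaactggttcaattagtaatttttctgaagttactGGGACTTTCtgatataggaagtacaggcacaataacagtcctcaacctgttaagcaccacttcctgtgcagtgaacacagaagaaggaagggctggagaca
Ms4a6c: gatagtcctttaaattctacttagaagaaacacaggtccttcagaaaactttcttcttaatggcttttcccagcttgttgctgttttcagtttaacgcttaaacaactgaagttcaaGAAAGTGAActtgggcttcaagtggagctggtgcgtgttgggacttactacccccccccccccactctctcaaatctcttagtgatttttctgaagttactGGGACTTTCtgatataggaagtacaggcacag
The interferon core lies 206 to 198 bases before the start of *Ms4a6b* and 133 to 125 bases before that of *Ms4a6c*, and the kappaB letters lie 101 to 93 and 32 to 24 bases before the starts. In the best local alignment, bases 248 to 71 before the start of *Ms4a6b* paired with bases 175 to 2 before the start of *Ms4a6c*, with 152 identical of 182 columns (83.5%). Aligned over the whole windows, the identity of this pair was 47.4%, below the 53.0% of *Ms4a4c* with *Ms4a6b*, and the alike stretches lie at different distances from the starts. *Ms4a4b* and *Ms4a4c* had more identical bases, 184 of 251 columns (73.3%), and 70.8% identity over the whole windows. Against control, *Ms4a4c* was upregulated in both treated groups and *Ms4a4b* in neither. A match describes letters in these windows, and no binding was measured.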

How the data were processed

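Reads from lung RNA of 8 mice were trimmed by the authors with Trim Galore after FastQC 0.11.9, aligned to GRCm39 with HISAT2 2.2.1 and counted per gene with featureCounts 2.0.1, and the deposited values are raw counts. The annotation release, the strand setting and the treatment of reads that map to several places are not given in the sources used here, so counts of overlapping genes and close paralogs are uncertain. Symbols and coordinates were taken from GENCODE M39 by Ensembl identifier, which matched 54749 of 55416 identifiers, and the 667 others held 0.0533% of counts.

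Tests were run with edgeR 4.0.16 under R 4.3.3 (TMM, filterByExpr by group, quasi-likelihood test with 1 group factor on all 8 libraries, 5 residual degrees of freedom), with Benjamini-Hochberg adjustment over 18560 genes. The TMM factors ran from 0.810 to 0.930 in LPS and from 1.06 to 1.11 in the other libraries. DESeq2 1.42.0, other scalings and filters, other call rules, the 2 compared groups alone and leaving out mice were the alternatives. Exon lengths are the union of annotated exons. The pipeline was tested on simulated data. Promoter windows came from RefSeq and were aligned with Biopython 1.88. Named genes are all members, the MS4A cluster, listed genes and the 2 most similar genes of each member. *BE692007* was named after its values were seen. The members and lists were chosen with earlier results of these data known.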

Additional observations from a re-analysis of the deposited data

How the results depend on the processing

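The log2FC and call of the 8 genes in the 3 comparisons were rechecked in 336 alternatives. Of these, 319 kept their direction and their side of the threshold, 8 lost the call, 7 gained it and 2 reversed. The other call rules left the log2FC as it was, so they could not reverse it. Of the 7 gains, 3 came from an adjusted p with no fold threshold. The 2 reversals were *Ms4a4a* and *Ms4a4c* in dual-treatment against LPS lungs without dual-treatment mouse 2, at -0.09 in each case, beside 0.39 and 0.57 without dual-treatment mouse 5, and neither was called in any fit. DESeq2, its size factors in edgeR, both filters on low counts, unadjusted p-values and the 2 compared groups alone changed no call of a member. The count of members downregulated with LPS was 0 to 1 when a mouse was left out and 0 with LPS mouse 1 as the only LPS mouse. The median log2FC of the members with LPS was 1.08 with library size only and 1.69 with LPS mouse 1 alone. Against LPS, the median in dual-treatment lungs was 1.55 with library size only and 0.83 with LPS mouse 1 alone. Against control it ran from 2.70 to 3.23 when a mouse was left out. The cause of these shifts was not tested, apart from the scaling itself. Where a group was left with 1 mouse, that mouse was assumed to vary like the mice of the other groups. No paired analysis was possible because the groups hold different mice, and equal mouse numbers across groups do not mark the same animal. Groups of 2 or 3 mice, and counts as low as 17 for *Ms4a7*, limit what could be detected for the members with few reads.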
